A study of Rattus norvegicus with 11 samples.

Results

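Genes of the BCL2 family and of the caspases were examined in ventricle RNA of old and young Fischer-344 rats, an inbred strain used in ageing research. The study hybridised 11 Affymetrix rat arrays, 6 from the ventricle of rats aged 22 months (old) and 5 from the ventricle of rats aged 4 months (young). No treatment or genotype other than the strain is given in the labels. Whether each array came from its own animal is not stated, so p-values weigh a difference only against the spread of these arrays, which may be technical. The members were all probe sets, dim ones included, that the platform annotation gives to Bcl2, Bcl2l1, Bax, Bad, Casp1, Casp2 or Casp6. On these arrays several short probes to a transcript form a probe set and give 1 reading. Of 8740 probe sets other than controls, 17 carried 1 of these symbols alone: 3 for Bcl2, 4 for Bcl2l1, 2 for Bad, 3 for Casp2, 2 for Casp6 and 3 for Casp1. All 3 probe sets listing Bax also list LOC681314, which RefSeq (assembly GRCr8) places as a separate gene on another chromosome, so their readings cannot be given to Bax alone and stand apart below.

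Proteins of the BCL2 family decide whether the outer mitochondrial membrane stays closed. Bcl-2 and Bcl-xL (from Bcl2l1) hold it closed, Bax perforates it and so lets cytochrome c out, and Bad, a protein with only the BH3 segment, binds Bcl-2 and Bcl-xL and blocks them unless phosphorylation holds it on 14-3-3 proteins. Caspases are proteases that cut behind aspartate: caspase-2 is an initiator, caspase-6 an executioner that cuts nuclear lamins, and caspase-1 matures the cytokines interleukin-1 beta and interleukin-18. Heart muscle cells divide rarely, so those lost to cell death are hardly replaced. The arrays measure RNA only, whereas much of the control of these proteins lies in cleavage, binding and phosphorylation.

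No member probe set passed the test between old and young ventricle. Readings are deposited intensities. Each difference is the old log2 mean less the young one, with its standard error (SE) from limma. For the fit, intensities were raised to a floor of 47.4, which is 5.57 on the log2 scale, and probe sets in the lowest 40% by mean were left out as dim. By this filter 10 of the 17 member probe sets were tested and 7 were dim, among them both for Casp6. Of the 10 tested, 0 passed a limma adjusted p of 0.05, with a background of 0% of 5244 probe sets. At an unadjusted p under 0.05 there was 1, U72350_at of Bcl2l1, which was lower in old, and 7.51% of all tested probe sets reached that level. With the dim probe sets included, 0 of 17 passed the adjusted threshold, against 0% of 8740, and 1 had an unadjusted p under 0.05, against 6.69%. Old and young arrays overlapped for every one of the 17, whereas the groups stood apart for 0.973% of tested and 0.744% of all probe sets.

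Among the tested member probe sets, 8 had a difference above 0 and 2 below it, against 49.4% above 0 among all tested probe sets. Several read the same gene, 3 each Bcl2l1 and Casp1 and 2 Casp2, so they are not separate genes. With all probe sets of a gene averaged, Bcl2 was at 0.65, Casp2 at 0.73, Casp1 at 0.34 and Casp6 at 0.16, while Bad and Bcl2l1 were at -0.13. The median difference of the tested member probe sets was 0.32, and that of all tested probe sets was -0.01. Among the dim spike-in arrays alone, described below, both medians were nearly equal, at 0.080 for the members and 0.072 for all tested probe sets, while among the bright ones they were 0.61 and -0.14. With dim members included, 12 of 17 were above 0, against 58.4% of all 8740. The members' median size of difference, sign aside, was 0.56, about as large as their median SE of 0.57.

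**Figure D1:**
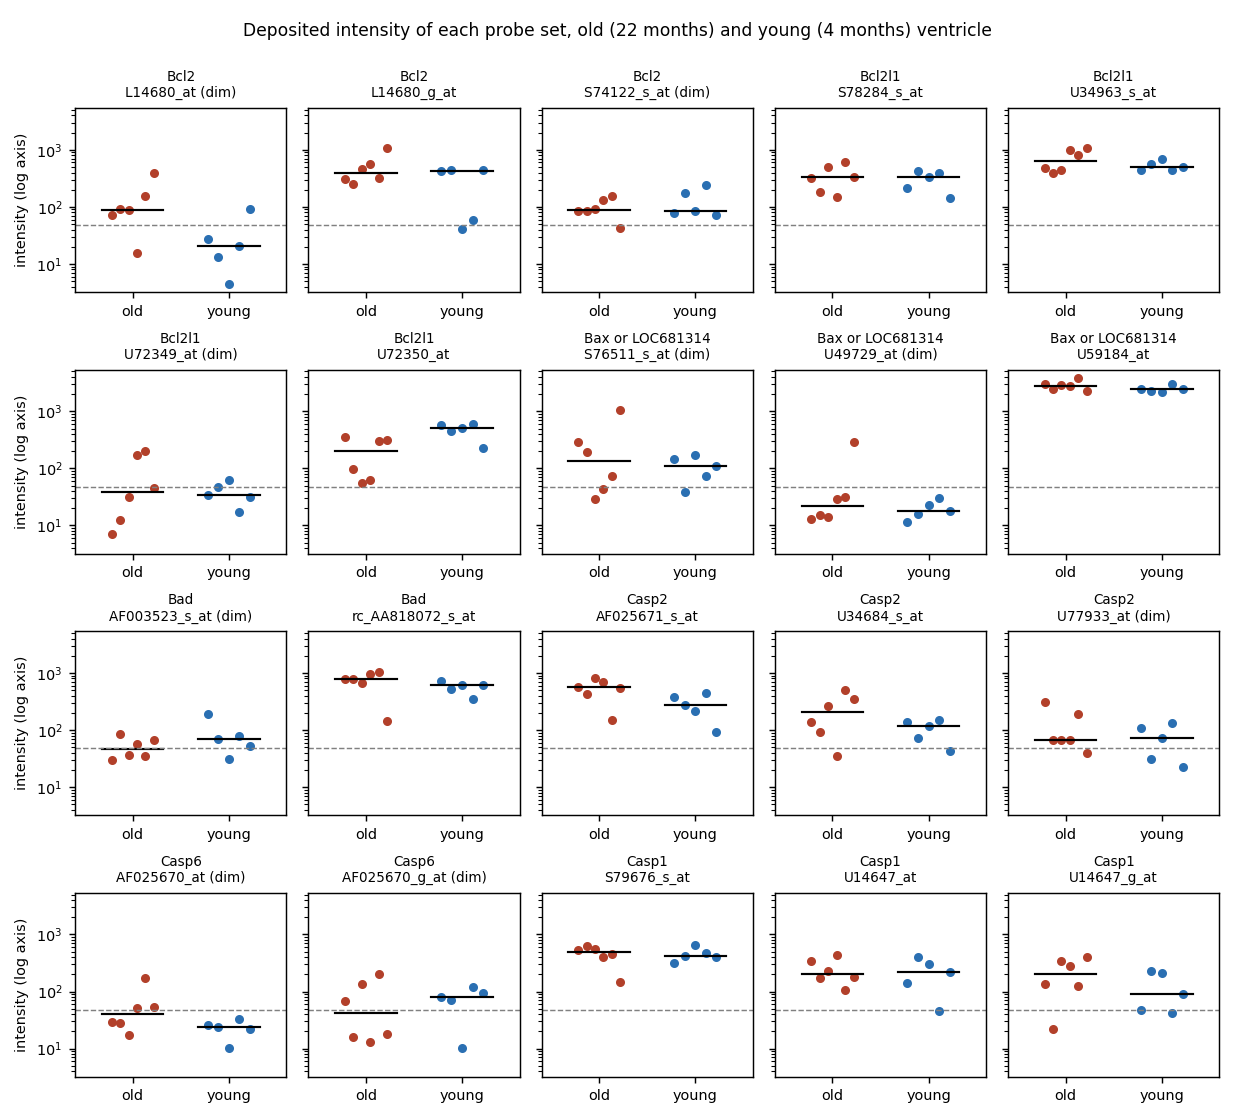
Deposited intensity (log axis) of each of the 20 probe sets on each array, old on the left and young on the right of each panel, with the points of a group in replicate order, the group median as a black bar and the floor of 47.4 as a dashed line. Old and young points overlap in every panel; the 3 lowest old arrays for Bcl2l1 U72350_at, at 55.9 to 98.7, and the 2 young arrays near the floor for Bcl2 L14680_g_at stand out.

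The arrays themselves differed in ways that touch these values. All arrays were scaled to a common level, with trimmed means between 500.47 and 500.96. The bacterial spike-in controls, transcripts added to each sample, were bright in old replicates 3 to 6 and young replicate 4. On the log2 scale they were at 13.19 to 15.24 in those old arrays and at 11.97 in young replicate 4. The bright old and young arrays were thus not matched in spike-in level. In the other 6 arrays the controls were dim (9.55 to 10.20). The GAPDH control had log2 ratios of its 3' to its 5' end of 3.39 and 4.09 in old replicates 3 and 4, and of 0.07 to 0.77 elsewhere. Of the 17 member probe sets, 6 had their highest reading of all arrays in old replicate 5 and 4 in old replicate 6, and the lowest fell 4 times on young replicate 3. Those lowest readings, 4.5 to 41.6, were all below the floor and came from the L14680 probe sets of Bcl2 and the AF025670 probe sets of Casp6. Of the ventricular muscle markers 12 of 14 were tested, 5 higher and 7 lower in old, and they summed to 436780 to 677309 in old arrays and to 413909 to 633077 in young ones. Ckm, muscle creatine kinase, and Des, desmin, differed by -0.67 ± 0.30 and -0.86 ± 0.33, with every old array below every young one (unadjusted p = 0.035 and 0.0168, limma adjusted p = 0.614 and 0.56). Both were singled out after their values were seen. The part of muscle content in the member readings was not tested. Since these are pieces of whole ventricle, fewer cells of a type and less RNA per cell cannot be told apart.

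Bcl2, which encodes the founding anti-apoptotic member, was read by L14680_g_at at 256.3 to 1095.6 in old arrays, with a median of 392.75, and at 419.6, 439.8, 41.6, 59.2 and 438 in young replicates 1 to 5. Young replicates 3 and 4 stood far below every old array, while the other 3 young arrays lay inside the old range, so the young median of 419.6 was above the old one although the young mean was lower. The log2 mean was 8.78 ± 0.77 in old ventricle (SD, n = 6) against 7.54 ± 1.66 in young ventricle (SD, n = 5). The difference of 1.23 ± 0.66 did not pass (limma adjusted p = 0.675), and its 95% interval ran from -0.15 to 2.61. Without young replicate 3 it was 0.74 ± 0.63. Among the dim spike-in arrays it was 0.17 ± 0.87, and among the bright ones, where young replicate 4 was the only young array, 3.21 ± 1.23.

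The second Bcl2 probe set from the same source sequence, L14680_at, was dim. It read 15.3 to 396.6 in old arrays, with a median of 89.75, against 27.2, 13.3, 4.5, 20.9 and 91.6 in young replicates 1 to 5. All young arrays but replicate 5 were below the floor, as was 1 old array, so the fitted difference of 1.02 ± 0.49 understates the gap in the readings (limma adjusted p = 0.721, unfiltered fit). Floors at the 10th and the 30th percentile gave 1.59 ± 0.67 and 0.56 ± 0.38, and without old replicate 6, the highest array, it was 0.65 ± 0.32. S74122_s_at, also dim, went the other way: 41.9 to 157.8 in old arrays with a median of 88.7, and 71.7 to 241.2 in young arrays with a median of 85.1, a difference of -0.30 ± 0.48. With array weights it was 0.05 ± 0.39, and without young replicate 4, its highest array, -0.03 ± 0.45. Over the 11 arrays S74122_s_at correlated at r = -0.52 with L14680_at and at r = -0.44 with L14680_g_at, while L14680_at and L14680_g_at correlated with each other at r = 0.53. S74122_s_at thus ran against the other pair.

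Bcl2l1, the gene of Bcl-xL and of its shorter, pro-apoptotic splice form Bcl-xS, gave the difference with the smallest unadjusted p of the members. U72350_at read 355.2, 98.7, 55.9, 61.7, 304 and 315.5 in old replicates 1 to 6, against 578.4, 459.6, 504.7, 599.4 and 228.2 in young replicates 1 to 5. Every old array lay below every young one except replicate 5, the lowest young array, which 3 old arrays exceeded. The log2 mean was 7.23 ± 1.25 in old ventricle (SD, n = 6) against 8.81 ± 0.57 in young ventricle (SD, n = 5). The difference was -1.58 ± 0.60, with a 95% interval of -2.84 to -0.32 and an unadjusted p of 0.0165, and it did not pass after adjustment (limma adjusted p = 0.56). Of all tested probe sets, 4.12% were lower in old at an unadjusted p under 0.05.

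The lowest readings of U72350_at, 55.9 and 61.7, came from the arrays whose GAPDH ratio was high, old replicates 3 and 4. The next lowest, 98.7, came from old replicate 2, whose GAPDH log2 ratio was 0.07. Without old replicates 3 and 4 the difference was -0.90 ± 0.53 (limma adjusted p = 0.89). Summed endothelial markers were lowest on old replicates 3 and 4, at 732 and 1090.1. They were 1908.4 to 2578.3 on the other old arrays, with old replicate 2 at 1908.4, and 2053.2 to 2724.6 on young ones. This list was set beside U72350_at after the values were seen, and other lists also stood out on these arrays. Old replicate 3 had the highest macrophage and granulocyte sum, 42518.3, and old replicate 4 the highest ventricular muscle sum, 677309. The part of the GAPDH ratio or of endothelial content in the U72350_at readings was not tested. The U72350_at difference was -1.16 ± 0.62 among the dim and -2.15 ± 1.54 among the bright spike-in arrays, and -1.53 ± 0.69 when the fit held the spike-in class as a block. Its direction was the same under all 25 alternatives, and the adjusted p lay between 0.256 and 0.999.

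The other Bcl2l1 probe sets did not share that direction with all arrays in the fit. U34963_s_at read 398 to 1090.6 in old arrays with a median of 647.8, and 437.9 to 701 in young arrays with a median of 498.8. Its difference was 0.32 ± 0.39, with an interval of -0.50 to 1.14 (limma adjusted p = 0.867), and it was 0.17 ± 0.38 without old replicate 6, its highest array. It was 0.03 ± 0.38 under median centring and turned to -0.32 ± 0.41 among the dim spike-in arrays. S78284_s_at read 149.6 to 602.6 in old arrays and 144.8 to 420.9 in young arrays, with nearly equal medians of 328 and 330.9. Its difference of 0.15 ± 0.51 turned to -0.08 ± 0.49 under quantile normalization and to -0.14 ± 0.48 under median centring. U72349_at was dim, with 4 of 6 old and 3 of 5 young arrays at the floor, and old replicates 4 and 5 at 173.6 and 199.5 above all others. Its difference of 0.58 ± 0.42 was 0.30 without old replicate 5. The 4 probe sets correlated with each other at r between -0.27 and 0.62 over the 11 arrays, which they share, and U72350_at at 0.28 or less with each of the others.

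Bax could not be read alone. The 3 probe sets that list it with LOC681314 are given by their IDs. U59184_at, at the 95.1th percentile of all probe sets by mean, read 2231 to 3845.7 in old arrays with a median of 2840.85, against 2448.4, 2238.9, 2212.7, 3052.6 and 2445.6 in young replicates 1 to 5. It was the steadiest of the 20 probe sets among those above the filter, with log2 means of 11.47 ± 0.27 in old ventricle (SD, n = 6) against 11.27 ± 0.19 in young ventricle (SD, n = 5). The difference of 0.20 ± 0.27 had an interval of -0.36 to 0.76 (limma adjusted p = 0.876), and it turned to -0.09 ± 0.32 under median centring. S76511_s_at, dim, spread from 29.7 to 1052.2 in old arrays and from 37.9 to 174.3 in young ones, and its difference of 0.55 ± 0.80 was -0.02 without old replicate 6, its highest array. U49729_at was at the floor on 10 of 11 arrays and read 285.2 on old replicate 6, the array with the brightest spike-ins. No ratio of Bax to Bcl2 is given, because no reading belongs to Bax alone.

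Bad was read brightly by rc_AA818072_s_at, at 784.5, 771.1, 656.5, 939.1, 1024.3 and 143.6 in old replicates 1 to 6, against 729.1, 517.4, 623.4, 350.5 and 625.6 in young replicates 1 to 5. Of the old arrays 4 exceeded every young one, and old replicate 6 lay below all of them. The log2 means were 9.27 ± 1.05 in old ventricle (SD, n = 6) against 9.11 ± 0.41 in young ventricle (SD, n = 5). The difference of 0.16 ± 0.48 did not pass (limma adjusted p = 0.954). It was 0.58 ± 0.33 without old replicate 6, and turned to -0.13 ± 0.55 under median centring. AF003523_s_at was dim, with 3 of 6 old and 1 of 5 young arrays at the floor, and differed by -0.42 ± 0.35. Without young replicate 1, its highest array at 192.7, the difference was -0.09 ± 0.25. Neither Bad probe set passed.

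**Figure D2:**
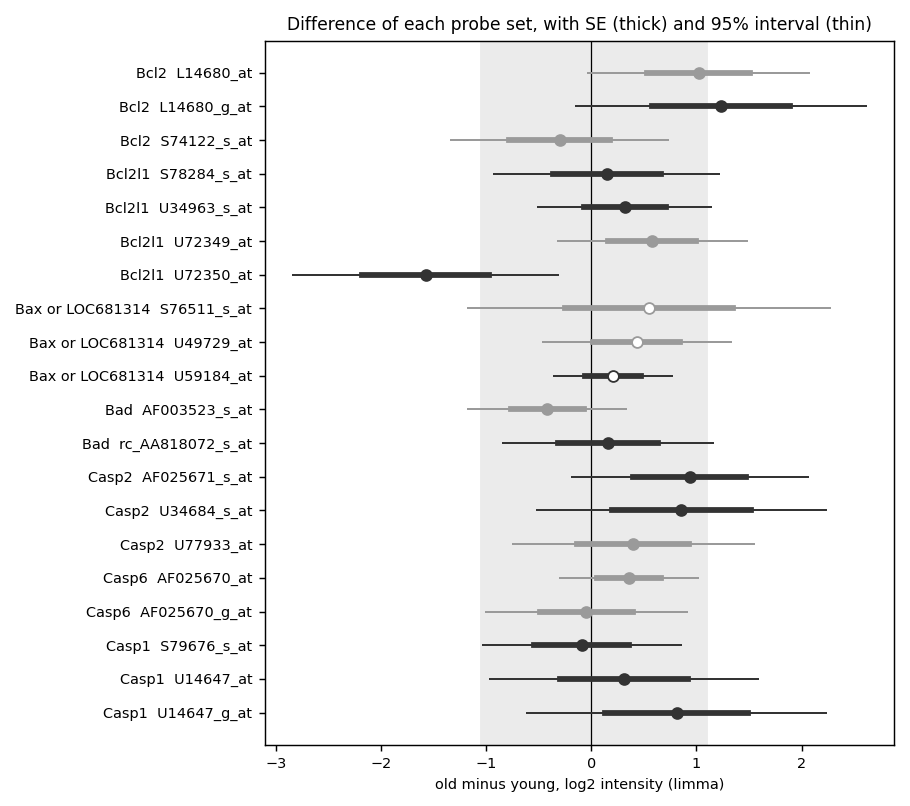
Old minus young (log2 intensity) for each of the 20 probe sets, with the SE as a thick and the 95% interval as a thin line; dim probe sets are grey, probe sets that list Bax with LOC681314 have open circles, and the shaded band holds the middle of all 5244 tested differences, from the 5th percentile at -1.05 to the 95th at 1.099. U72350_at of Bcl2l1, at -1.58, is the only interval that does not reach 0.

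Casp2 gave the largest differences of the tested caspase probe sets. AF025671_s_at read 567.3, 423.7, 826.7, 695.3, 147.2 and 544.9 in old replicates 1 to 6, against 377.3, 276.9, 213.4, 444.6 and 92.6 in young replicates 1 to 5. Of the old arrays 4 lay above every young one, and old replicate 5 lay below all young arrays but replicate 5. The log2 means were 8.88 ± 0.89 in old ventricle (SD, n = 6) against 7.95 ± 0.89 in young ventricle (SD, n = 5). The difference of 0.94 ± 0.54 had an interval of -0.19 to 2.06 and did not pass (limma adjusted p = 0.692). It was 0.58 ± 0.53 without young replicate 5, 1.202 ± 0.61 among the dim spike-in arrays, and 0.06 ± 1.14 among the bright ones.

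The other tested Casp2 probe set, U34684_s_at, read 35 to 494.9 in old arrays with a median of 202.7, against 43 to 147 in young arrays with a median of 118.2. Old replicates 3, 5 and 6 lay above every young array and old replicate 4 below all of them. The difference was 0.86 ± 0.66 (limma adjusted p = 0.779), and 0.38 ± 0.70 among the dim spike-in arrays. Old replicate 5, low for AF025671_s_at, was the highest array here, and without it the difference was 0.56 ± 0.67. The 2 probe sets correlated at r = 0.14 over the 11 arrays. U77933_at was dim and differed by 0.40 ± 0.53, by 0.07 ± 0.44 without old replicate 1, its highest array, and by -0.71 ± 0.91 among the bright arrays alone. Old replicates 2, 3 and 4 all read exactly 68.1 on it, and only 2 of the 8740 probe sets held the same value on 3 or more arrays.

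Both Casp6 probe sets were dim, with 8 of 11 arrays at the floor for AF025670_at and 4 of 11 for AF025670_g_at. AF025670_at read 17.4 to 173.4 in old arrays with a median of 40.25, and 10.3 to 32.9 in young arrays with a median of 24. All 5 young arrays were at the floor, and 3 old arrays, replicates 4, 5 and 6, were above it. The difference of 0.36 ± 0.30 rested mostly on old replicate 5, and was 0.06 without it. AF025670_g_at, from the same source sequence, read 13.3 to 202.9 in old arrays and 10.3 to 119.8 in young ones, with medians of 42.7 and 81.2. Its difference was -0.05 ± 0.44, which turned to 0.18 ± 0.26 with a floor at the 30th percentile. Its 2 readings correlated at r = 0.60. At this brightness a difference between old and young was not detectable, which does not show that there was none.

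Casp1, the inflammatory caspase, was read by S79676_s_at at 543.1, 639.3, 553.4, 405.8, 447.6 and 145.6 in old replicates 1 to 6, against 313.1, 416.1, 667, 483.1 and 400.5 in young replicates 1 to 5. Apart from old replicate 6, which lay below all arrays, the old readings fell inside the range of the young ones. The log2 means were 8.70 ± 0.78 in old ventricle (SD, n = 6) against 8.79 ± 0.40 in young ventricle (SD, n = 5), and the difference of -0.09 ± 0.45 turned to 0.21 ± 0.36 without old replicate 6. U14647_at, with 106.4 to 443.7 in old arrays and 45 to 399.6 in young arrays, differed by 0.31 ± 0.61, or by -0.16 ± 0.57 without young replicate 4. U14647_g_at, with 22.1 to 396.6 in old arrays and 42.1 to 231.8 in young arrays, differed by 0.81 ± 0.68. The last value turned to -0.61 ± 0.83 among the dim spike-in arrays and was 2.47 ± 1.45 among the bright ones. None of the 3 passed (limma adjusted p = 0.8 to 0.976).

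Macrophages and granulocytes are rich in caspase-1, so their markers are given beside it. Of 18 listed, 8 were tested, 5 higher and 3 lower in old, with a median difference of 0.13, and none passed. Lyz2, the macrophage lysozyme, had the only unadjusted p under 0.05 among them, with a difference of 1.49 ± 0.65 (unadjusted p = 0.0317, limma adjusted p = 0.597). Their summed intensity ran from 4616.8 to 42518.3 in old arrays and from 5286.5 to 9159.8 in young ones. Old replicate 3 held the highest sum, most of it from Lyz2. Its Casp1 readings were 553.4, 226.4 and 347 on S79676_s_at, U14647_at and U14647_g_at, all inside the range of the other old arrays. The part of these cells in the Casp1 values was not tested.

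Different probe sets of 1 gene were then set against each other. Over the 3 member genes with more than 1 tested probe set, the 7 pairs correlated at a median r of 0.09 over the arrays, from -0.28 to 0.61. Over all 857 such genes the 1403 pairs had a median r of 0.21. The points share their array, its scaling and its floor.

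Other genes of the cell death pathways were described from lists, each gene by its brightest tested probe set. Of 42 such genes, 16 were higher and 26 lower in old, with a median difference of -0.21, while over all 3206 genes the median was -0.01. None passed (0% of 5244 probe sets did). At an unadjusted p under 0.05 there were 3, which is 7.14%, against 6.86% of all genes, and all 3 were lower in old.

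The list of other BCL2 family genes had 7 tested, of which 3 were higher and 4 lower, with a median of -0.06. That median is the value of Tmbim6, Bax inhibitor-1, which the list holds although it is not of the BCL2 family. Bcl2l2, the gene of the anti-apoptotic Bcl-w, averaged 6.98 ± 1.11 in old ventricle (SD, n = 6) against 8.24 ± 0.49 in young ventricle (SD, n = 5), a difference of -1.26 ± 0.59 (unadjusted p = 0.0465, limma adjusted p = 0.655). Bok, a relative of Bax, differed by -0.41 ± 0.32. The BH3-only gene Hrk differed by 1.18 ± 0.72, and Bnip3l, which marks mitochondria for removal, by 0.62 ± 0.36. The list median turned to 0.30 when the spike-in class was a block in the fit.

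Of the genes downstream of the BCL2 family, 9 mitochondrial ones were tested, with 8 lower and 1 higher in old and a median of -0.38. Ppif, cyclophilin D of the permeability pore, differed by -0.66 ± 0.40, and Vdac1, a channel of the outer membrane, by -0.54 ± 0.40. Tspo, the outer membrane translocator protein, was the member above 0, at 0.01 ± 0.29. The median turned to 0.25 among the bright arrays alone. From the list of other caspases, the apoptosome and inhibitors of apoptosis, Parp1, a caspase substrate, differed by -0.50 ± 0.57 and Diablo, which relieves caspase inhibition, by 0.42 ± 0.50.

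Genes for the kinases and phosphatases that act on Bad and for the 14-3-3 proteins that hold it numbered 13 tested, 5 higher and 8 lower, with a median of -0.14 that turned to 0.055 without old replicate 6 and to 0.19 among the dim spike-in arrays. Ppp1ca, a catalytic subunit of protein phosphatase 1, differed by -1.11 ± 0.45 (unadjusted p = 0.0235) and Akt2, a kinase of the insulin pathway, by -1.06 ± 0.62. Ywhaz, a 14-3-3 protein, differed by 0.61 ± 0.40 and Pim3, a kinase, by 0.11 ± 0.55.

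Of the death receptor list 2 were tested. Ngfr, the p75 neurotrophin receptor, differed by -0.87 ± 0.35 (unadjusted p = 0.021), and Tnfrsf1a, the main receptor of tumour necrosis factor, by -0.18 ± 0.36. The p53 axis gave 3 higher and 2 lower, with a median of 0.41, which was -0.01 without young replicate 4 and 0.01 without the arrays of high GAPDH ratio. In it, Cdkn1a, the cell cycle inhibitor p21, differed by 1.07 ± 0.62, Gadd45a, a stress gene, by 0.43 ± 0.48, Ccng1, cyclin G1, by -0.49 ± 0.35 and Mdm2, the ligase that degrades p53, by -0.29 ± 0.44. The list of caspase-1 substrates and the inflammasome had 4 tested genes, all of interleukin-1 or its receptors. Of these, 3 were higher, with a list median of 0.03. Il1b, a direct substrate of caspase-1, was the lower one, at -0.23 ± 0.67. Il1a differed by 0.23 ± 0.73 and the decoy receptor Il1r2 by 0.04 ± 0.52.

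**Figure D3:**
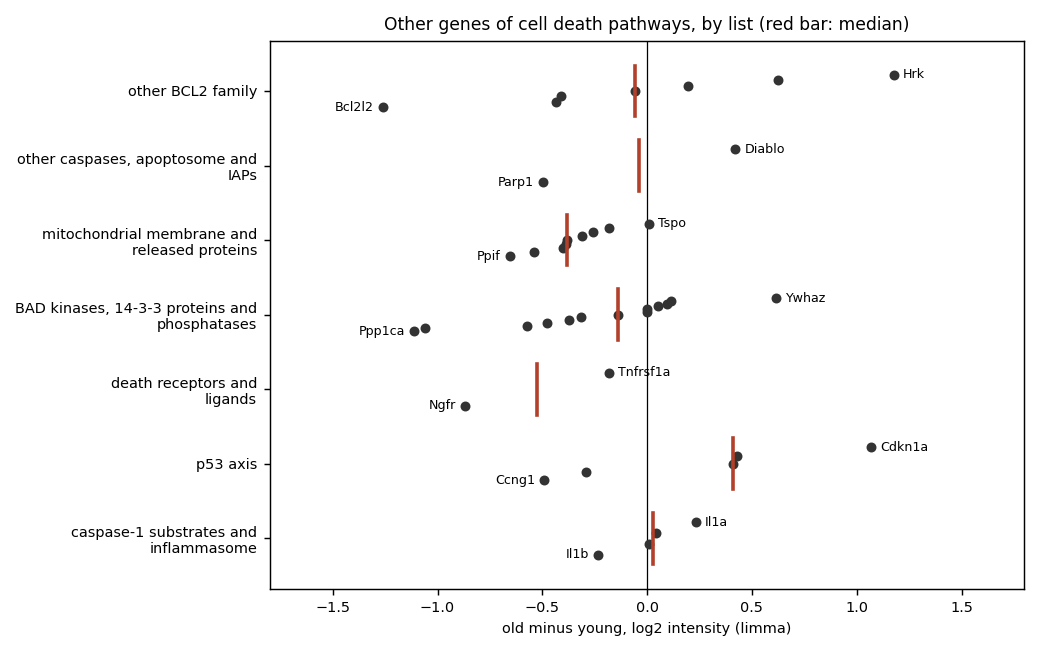
Old minus young (log2 intensity) of 42 other genes of cell death pathways, each dot a gene by its brightest tested probe set, by list, with the list median as a red bar and the lowest and highest gene named. Of the 9 mitochondrial genes 8 lie below 0, while the other lists with more than 2 genes spread on both sides.

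**Figure D4:**
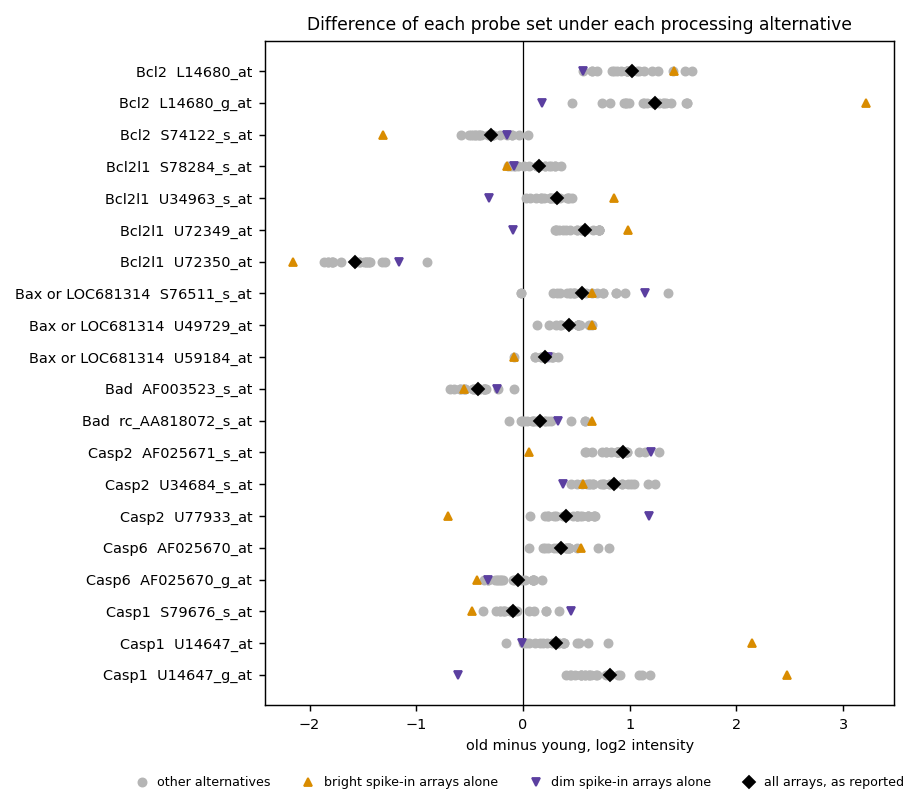
Old minus young (log2 intensity) of each of the 20 probe sets with all arrays (black diamonds), among the bright (orange) or dim (purple) spike-in arrays alone, and under the other alternatives (grey). U72350_at of Bcl2l1 stays below 0, from -2.15 to -0.90, and L14680_g_at of Bcl2 above 0, from 0.17 to 3.21, while the points of most Casp1 and Bcl2l1 probe sets fall on both sides.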

How the data were processed

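The deposited table holds linear intensity values of 8799 probe sets on 11 arrays, from 0.2 to 307755.8. The authors' intensity values share a mean, trimmed by 2% at both ends, on every array, so they had been scaled per array. The software, background correction and detection calls were not given in the sources used here. Symbols came from GEO's platform annotation, and no gene was named from the 308 probe sets with several symbols.

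Intensities below the 20th percentile were raised to it, and log2 was taken. The 59 control probe sets and those under the 40th percentile of the mean were left out, which left 5244. The groups were compared in limma 3.58.1 (R 4.3.3) with a mean-variance trend, two-sided, and p-values were adjusted by Benjamini and Hochberg's method over every probe set in the fit. The 8740 probe sets without the filter were fitted likewise and give the values of dim members. The number of arrays limits the precision. The fit was also run on simulated data with independent normal noise. That noise had no floor and no shared array effects, so the run does not show how the fit behaves with them.

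Members and lists were chosen with earlier results of these data known. Named were all member probe sets and, from each pathway list, up to 2 genes with the smallest p in each direction. Tmbim6 was named besides, because its value is a list median. Deviations of same-numbered arrays from their group means correlated at r from -0.25 to 0.25 over 5 pairs. Differently numbered arrays were not compared, so these values cannot tell whether arrays were paired. The labels name no pairs, and replicate numbers were not taken as pairs. The planned ratio of Bax to Bcl2 was not computed.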

Additional observations from a re-analysis of the deposited data

Results flagged for a closer look

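In 7 of 40 groups of arrays (20 probe sets in old and in young), the highest or lowest array lay far from the rest, by Dixon's test of the log2 values after the floor. Chance flags about 1 in 20 groups, a rate that does not hold where arrays are tied at the floor, as in 4 of the 7. In old, replicate 6 was the array apart for 3 probe sets: low at 7.17 for Bad rc_AA818072_s_at, where the next array read 9.36, low at 7.19 for Casp1 S79676_s_at, with the next at 8.66, and high at 8.16 for U49729_at, which lists Bax with LOC681314 and where every other old array was at the floor of 5.57. Old replicate 5 was high for Casp6 AF025670_at, at 7.44 against 5.73 for the next. In young, replicate 5 was high for Bcl2 L14680_at, at 6.52 with the other 4 at the floor, and low for Bcl2l1 U72350_at, at 7.83 against 8.84. Young replicate 3 was high for Bcl2l1 U72349_at, at 5.95 against 5.57.

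Old replicate 6 also had the brightest spike-in controls, at 15.24 on the log2 scale, and the lowest mean correlation with the other arrays of its group, 0.59. The part of these in its member readings was not tested.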

How the results depend on the processing

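No member probe set passed under any alternative run, and the smallest adjusted p was 0.256, for U72350_at with array weights. Over all probe sets, 5 passed among the bright arrays alone, 1 among the dim ones, and 0 to 2 with each array left out in turn, the 2 without old replicate 5. Median centring moved the median of all tested probe sets to -0.29 and quantile normalization to -0.12, against -0.01 as reported; the members' median was then 0.02 and 0.19. Among the dim arrays alone these medians were 0.072 for all and 0.080 for the members. Signs changed as follows, and the cause was not tested. With the mean of all its probe sets, Bad was at -0.13, Bcl2l1 at -0.13, Casp1 at 0.34 and Casp6 at 0.16. Median centring gave -0.13 for rc_AA818072_s_at, -0.14 for S78284_s_at and -0.085 for U59184_at, and quantile normalization -0.079 for S78284_s_at. A floor at the 30th percentile gave 0.18 for AF025670_g_at. Array weights gave 0.047 for S74122_s_at and 0.34 for S79676_s_at. The replicate block gave 0.089 for AF025670_g_at, -0.020 for S76511_s_at and 0.21 for S79676_s_at, and changed no call. The spike-in class as a block gave -0.11 for S78284_s_at and 0.10 for S79676_s_at. The bright arrays alone gave -0.15 for S78284_s_at, -0.082 for U59184_at and -0.71 for U77933_at. The dim arrays alone gave -0.087 for S78284_s_at, 0.45 for S79676_s_at, -0.013 for U14647_at, -0.61 for U14647_g_at, -0.32 for U34963_s_at and -0.10 for U72349_at. Without the arrays of GAPDH ratio over 3, rc_AA818072_s_at was at -0.017. With each array left out in turn, AF025670_g_at ran from -0.33 to 0.10, rc_AA818072_s_at from -0.0068 to 0.58, S76511_s_at from -0.020 to 0.87, S78284_s_at from -0.089 to 0.36, S79676_s_at from -0.22 to 0.21 and U14647_at from -0.16 to 0.60. Of the list medians, that of the mitochondrial genes moved to 0.25 among the bright arrays, and that of the other BCL2 family list to 0.30 where the spike-in class was a block. The list of other caspases, the apoptosome and inhibitors of apoptosis moved to 1.65 among the bright arrays. Its tested genes were Parp1 and Diablo alone, so no other caspase was read. The p53 median was 0.94 among the bright arrays, 0.012 without the arrays of high GAPDH ratio, and -0.0093 to 0.60 with each array left out. The median of the BAD kinase list turned to 0.055 with the replicate block or without old replicate 6, to 0.11 with the spike-in block and to 0.19 among the dim arrays, and those of the caspase-1, other caspase and other BCL2 lists, all near 0, also turned under several alternatives. The ratio of Bax to Bcl2 was not run, and no value could be had for U49729_at or AF025670_at where every array was at the floor. The bright arrays hold 1 young array, which is assumed to vary like the others. Low signal limits the readings of Casp6 and the other dim probe sets.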

Other observations

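The probe sets whose readings were most like a member's over the 11 arrays are given as a description, each among the 2 highest of 4307 to 4309 correlations, between points that share array, scaling and floor. L14680_g_at of Bcl2 was most like Cdv3 (r = 0.91) and Kctd13 (r = 0.89). U34963_s_at of Bcl2l1 was most like Cnmd, a cartilage protein (r = 0.91), and Slc22a7, an organic anion transporter (r = 0.91). For rc_AA818072_s_at of Bad these were Txnl1, a thioredoxin-like protein, and Jag1, a Notch ligand (r = 0.92 each). For AF025671_s_at of Casp2 they were Plekhm2 (r = 0.87) and Prodh2 (r = 0.85), and for S79676_s_at of Casp1 they were Lman1, a cargo receptor of the endoplasmic reticulum (r = 0.94), and Rtcb, an RNA ligase (r = 0.93).

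Markers of other cells that ventricle holds went both ways. All 5 tested endothelial markers were lower in old, with a median difference of -0.51 and summed intensities of 732 to 2578.3 in old arrays and 2053.2 to 2724.6 in young ones. Of 9 tested fibroblast markers 6 were higher in old (median 0.38), and of 6 tested smooth muscle markers 5 were (median 0.62). All 4 red cell markers and all 3 atrial markers tested were higher in old, with medians of 0.85 and 0.95. The 6 lymphocyte markers were split evenly (median 0.01). None of the markers passed (limma adjusted p). Beside Lyz2 and Ckm, at an unadjusted p under 0.05 were Lum and Nppa, higher in old, and Des, lower in old, named here after their values were seen.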
